A study of Mus musculus with 2 samples.

Results

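S100 genes encode small calcium-binding proteins, and 10 of the 17 S100 genes measured among 32285 features are described here across the cells of the mouse thymic stroma: S100a8, S100a9, S100a14, S100g, S100a4, S100a6, S100a10, S100a11, S100a1 and S100b. They were taken by symbol and had been chosen by their UMI counts (UMIs mark distinct RNA molecules) in these cell classes in both libraries. Their levels, their order and their fold differences are therefore given as a description with no test. Tests are given only for other S100 genes and for known partners of S100 proteins. The data are 2 droplet 3' single-cell libraries of total thymic stroma from mice labelled E2F_M11, in which a pair of E2F binding sites in the proximal promoter of Foxn1, the master regulator of thymic epithelium, had been removed with CRISPR-Cas9. Both libraries carry that deletion, and both were depleted of CD45+ blood cells on magnetic beads after enzymatic digestion. The wild-type stroma that the study set beside them was not analysed here, so no value measures an effect of the deletion. The labels give no strain, age or sex and name no animal for either library. Every spread below therefore measures only the difference between these libraries, which may be technical. The p-values rest on how gates vary between the same libraries once a shared library term is removed, and cannot be read as variation between animals.

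Most S100 proteins pair up as dimers, bind calcium through EF-hand motifs and open a binding face when calcium rises. S100A8 and S100A9 together form calprotectin, an antimicrobial protein known from neutrophils, monocytes and inflamed skin, whose extracellular receptors include TLR4 and RAGE (Ager). S100A10 and S100A11 bind annexins at membranes, S100A4 binds non-muscle myosin, S100G (calbindin-D9k) ferries calcium through absorptive epithelium under control of the vitamin D receptor, and S100B is best known from glia. In the thymic medulla, Aire drives expression of many tissue-restricted genes, and mimetic epithelial cells take on programmes of peripheral cell types such as tuft cells, keratinocytes and microfold cells.

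In GRCm38, 8 of the 10 genes lie on chromosome 3. S100a1 (3:90511034-90514392), S100a14 (3:90526856-90528837), S100a4 (3:90603771-90606045), S100a6 (3:90612882-90624181), S100a8 (3:90668978-90670035) and S100a9 (3:90692632-90695721) stand close together, and S100a11 (3:93520488-93526287) and S100a10 (3:93555080-93564643) lie further along. S100g is on X (162961992-162964599) and S100b on chromosome 10 (76253853-76261159). S100a4, S100g and S100b overlap the annotated genes Gm42674, Ctps2 and Dip2a, and how the authors' counting assigned reads where genes overlap is not given in the sources used here. Promoters of 8 of the 10 genes were found in a RefSeq table (GRCm38.p6). Those of S100a14 and S100a10 were not in it and were not searched. The 4 shown are from genes with large differences between Aire-expressing and other epithelium, which S100a14 also had. They are the 4 of the 8 with a TATAAA match. Each runs from 250 bases before to 30 bases after the RefSeq start. Capitals mark TATAAA, the TATA box, and TTGCNNAA, the letters of a C/EBP site, searched on both strands with no overlap between them.
S100a8, chr3:90668821-90669100, plus strand: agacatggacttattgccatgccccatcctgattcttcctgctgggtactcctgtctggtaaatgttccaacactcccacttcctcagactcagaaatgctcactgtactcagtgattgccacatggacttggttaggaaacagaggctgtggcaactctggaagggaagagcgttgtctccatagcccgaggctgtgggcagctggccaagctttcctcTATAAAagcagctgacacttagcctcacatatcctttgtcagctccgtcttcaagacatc
S100a9, chr3:90695692-90695971, minus strand: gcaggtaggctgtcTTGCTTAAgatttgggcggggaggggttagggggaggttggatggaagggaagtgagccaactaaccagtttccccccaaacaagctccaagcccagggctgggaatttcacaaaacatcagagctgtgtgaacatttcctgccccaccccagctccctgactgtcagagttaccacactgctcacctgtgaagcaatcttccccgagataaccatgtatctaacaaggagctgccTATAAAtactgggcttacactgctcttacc
S100g, chrX:162964570-162964849, minus strand: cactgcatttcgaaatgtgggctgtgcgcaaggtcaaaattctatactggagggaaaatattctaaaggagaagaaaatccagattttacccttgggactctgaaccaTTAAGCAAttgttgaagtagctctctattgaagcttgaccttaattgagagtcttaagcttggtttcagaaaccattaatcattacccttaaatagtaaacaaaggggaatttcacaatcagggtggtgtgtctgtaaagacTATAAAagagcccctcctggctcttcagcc
S100a4, chr3:90603520-90603799, plus strand: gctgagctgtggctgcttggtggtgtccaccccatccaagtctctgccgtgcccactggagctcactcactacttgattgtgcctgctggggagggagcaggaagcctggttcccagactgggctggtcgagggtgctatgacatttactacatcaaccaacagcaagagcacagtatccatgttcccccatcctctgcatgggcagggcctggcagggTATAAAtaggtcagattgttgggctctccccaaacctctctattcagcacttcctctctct
TATAAA begins 30 bases before the start in S100a8 and 31 before it in S100a4, whereas in S100a9 and S100g it begins at the annotated start itself. It occurs in 4 of the 8 promoters and in 13.6% of all 32851 promoters. Matches, GC content and CG counts were taken from 250 bases before to 50 bases after the start, beyond the stretch shown. TTGCNNAA occurs 236 bases before the start in S100a9 and 142 before it in S100g, and in 10.8% of all promoters. The GC content of the S100g promoter was 41.0% and that of S100a11 61.7%, with 3 and 15 CG dinucleotides, against medians of 52.7% and 7 over all promoters. S100a11 alone among the 8 held TGANTCA, the AP-1 motif, which occurs in 7.81% of all promoters and lay there 136 and 38 bases before the start. GGGCGG, the GC box, was in S100a9 and S100a11 (35.7% of all promoters), and CCAAT was in S100a6 and S100b (37.4%). A match describes the letters in this window and says nothing of binding.

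Library 1 held 5110 barcodes and 41075328 UMIs, and library 2 held 19163 barcodes and 42583831 UMIs. Of these, 3588 and 8186 barcodes passed the cell filter, with a median of 8727 and 1874 UMIs, so library 1 was the deeper per cell. Only 13 barcode sequences were shared among the cells kept. Cells were placed in classes, called gates below, by marker genes of which none is an S100 gene. Gates of at least 20 cells in both libraries held 70 and 92 cortical, 209 and 113 Aire-expressing, 354 and 325 Ccl21a-high, 60 and 97 tuft, 20 and 99 keratinocyte and 24 and 28 microfold cells. The fibroblast gates held 546 and 744 Pi16, 304 and 545 Cxcl14 and Col15a1, and 208 and 298 Inmt and Penk cells. Endothelial, mesothelial, pericyte and smooth muscle, and thymocyte gates made up the rest of the 13. Aire reached 643 and 636 UMIs per 1000000 UMIs of the Aire-expressing gate (CPM, the unit of every level below), at most 24.7 CPM in the other epithelial gates in the fit, and 109 CPM in the pericyte and smooth muscle gate of library 2. The cortical markers Prss16 and Psmb11 were at 5271 and 4882 CPM and at 1282 and 1075 CPM in the cortical gate. The thymocyte gate of library 1 also held them, at 1625 and 414 CPM, against 21.5 and 3.65 CPM in library 2. The 12 epithelial markers summed to 3270 and 191 CPM in thymocytes and the 9 fibroblast markers to 1261 and 670 CPM, so thymocytes, set beside the shares below as a class that should lack a gene, carried RNA of other cells, more so in library 1. Gates have soft edges: 35 and 44 of the cells past the Aire threshold held exactly the minimum of 2 Aire UMIs, and 67 and 108 cells held 1. Values are given as library 1 and then library 2, and means with SD have n = 2.

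**Figure D1:**
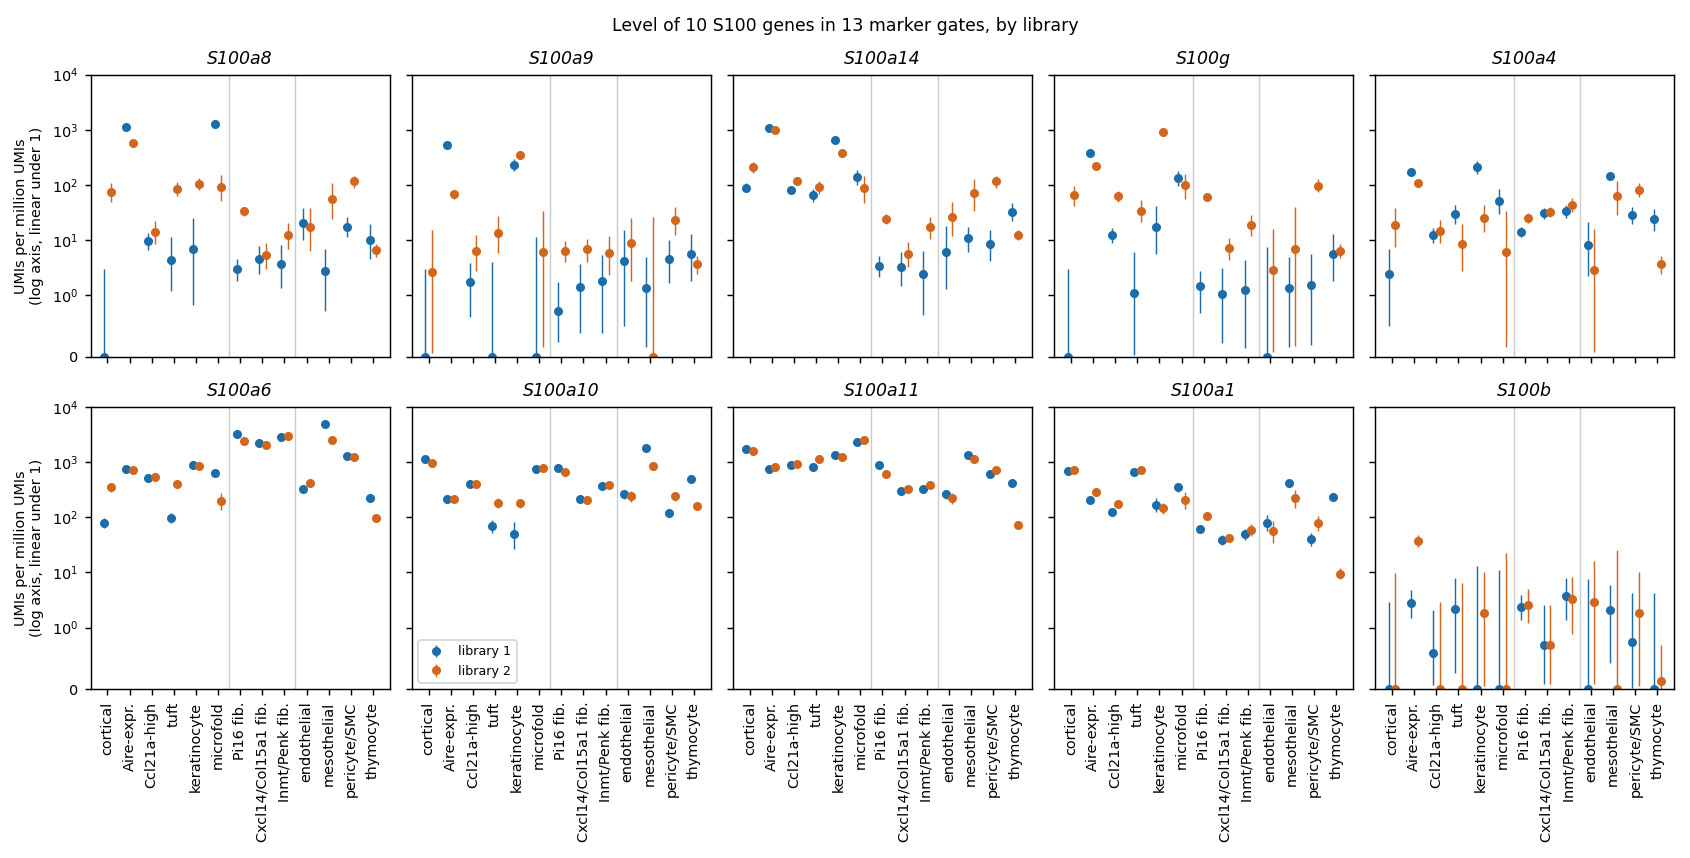
Each panel plots the level of 1 S100 gene (vertical axis, UMIs per 1000000 UMIs of the gate, log axis that is linear under 1) in 13 marker gates (horizontal axis) in library 1 (blue) and library 2 (orange), with 95% Poisson intervals that cover counting error only. S100a8, S100a9, S100a14, S100g and S100a4 stand high in the Aire-expressing gate, S100a6 in fibroblast and mesothelial gates, S100a10 and S100a1 in the cortical gate among others, and S100a11 in microfold cells.

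S100a8, the smaller calprotectin subunit, was at 1108 and 567 CPM in Aire-expressing cells (837 ± 383, SD), from 5182 and 933 UMIs. Both values lay above the 9.63 and 14.2 CPM of Ccl21a-high epithelium, the 0 and 75.6 CPM of cortical epithelium and the 10.2 and 6.64 CPM of thymocytes. No cortical cell of library 1 had a UMI, which allows a level of up to 2.41 CPM, and 26 of the 28 cortical UMIs of library 2 came from 1 cell. Microfold cells gave 1265 and 92.7 CPM. These did not stand clear of the Aire-expressing gate: 290 of the 415 UMIs of library 1 came from 1 cell, without which the level was 401 CPM, and the UMIs of library 2 numbered 15. In tuft cells, which had 4.38 and 86 CPM, 49 of the 50 UMIs of library 2 came from 1 cell. In order of mean level, none of the 12 pairs of neighbouring gates was apart in both libraries for this gene. Among gates too small for the fit, enterocyte and hepatocyte cells (26 and 16 cells) had 210 and 1060 CPM. S100a8 was not confined to these gates. The 449 and 1766 cells that no lineage claimed, which enter no comparison, had 642 and 541 CPM, from 2006 UMIs in each library. Cells that passed more than 1 epithelial gate had 1195 and 211 CPM. Barcodes that failed the cell filter had 49.1 and 52.6 CPM. They failed on UMIs, genes or mitochondrial share and are no clean measure of free RNA.

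S100a8 was uneven within the Aire-expressing gate, where the median cell had 0 UMIs. The top 10% of cells (21 and 12 cells) held 77.3% and 90.5% of the UMIs. Without the single highest cell the level was still 1011 and 421 CPM. UMIs were present in 39.7% and 31.0% of cells. After each cell was thinned to 1000 UMIs, the share was 23.4% (95% Clopper-Pearson interval 17.9 to 29.8) and 18.6% (11.9 to 27.0), at an unthinned median depth of 21122 and 9491 UMIs. Thymocytes, which should lack the gene, had a thinned share of 1.08% and 1.03% at median depths of 1830 and 2212.5 UMIs, and an unthinned share of 2.69% and 2.72%. The thinned intervals of the Aire-expressing gate lay above those of thymocytes in both libraries.

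S100a9, the larger calprotectin subunit, was spread differently. It was at 528 and 68.6 CPM in Aire-expressing cells (298 ± 325, SD) and at 235 and 355 CPM in keratinocyte cells (295 ± 84.8, SD). The order of these gates reversed between the libraries, so neither is the higher beyond the spread. Keratinocyte cells stood apart from the next gate in order, pericytes and smooth muscle, at 4.62 and 23.6 CPM. Ccl21a-high cells had 1.75 and 6.30 CPM, thymocytes 5.68 and 3.65 CPM, and cortical and microfold cells 1 UMI each over both libraries. The thinned share was 12.9% and 4.42% in Aire-expressing cells (22.0% and 6.19% unthinned) and 15% and 19.2% in keratinocyte cells (30% and 43.4% unthinned), against 2.15% and 0.484% in thymocytes (2.15% and 1.39% unthinned). In library 2 the interval in Aire-expressing cells, 1.45% to 10.0%, started above the thymocyte upper bound of 0.952%. All 113 UMIs of that gate in library 2 lay in 7 cells. Outside the fit, cells of no lineage had 184 and 155 CPM, in library 2 above the Aire-expressing gate. Cells that passed more than 1 epithelial gate had 312 and 176 CPM.

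The paired subunits were seen in the same cells to a varying degree. In the Aire-expressing gate, 40 of 209 cells of library 1 had UMIs of both genes, 43 had S100a8 alone and 6 had S100a9 alone. In library 2 the counts were 7, 28 and 0 of 113 cells. Cells with S100a9 in that gate were thus mostly cells that also had S100a8, whereas 48.2% and 20.0% of S100a8 cells had S100a9. The keratinocyte gate leaned to the other subunit, with 1, 1 and 5 of 20 cells and 11, 2 and 32 of 99 cells. In microfold cells S100a8 came alone in 6 of 24 and 3 of 28 cells, and no cell had both. Across the cells of the Aire-expressing gate, Pearson's r of S100a8 with S100a9 was 0.61 over 209 cells and 0.43 over 113 cells, while r of S100a8 with S100a14 was 0.02 and -0.13. These cells share a library and are not replicates.

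**Figure D2:**
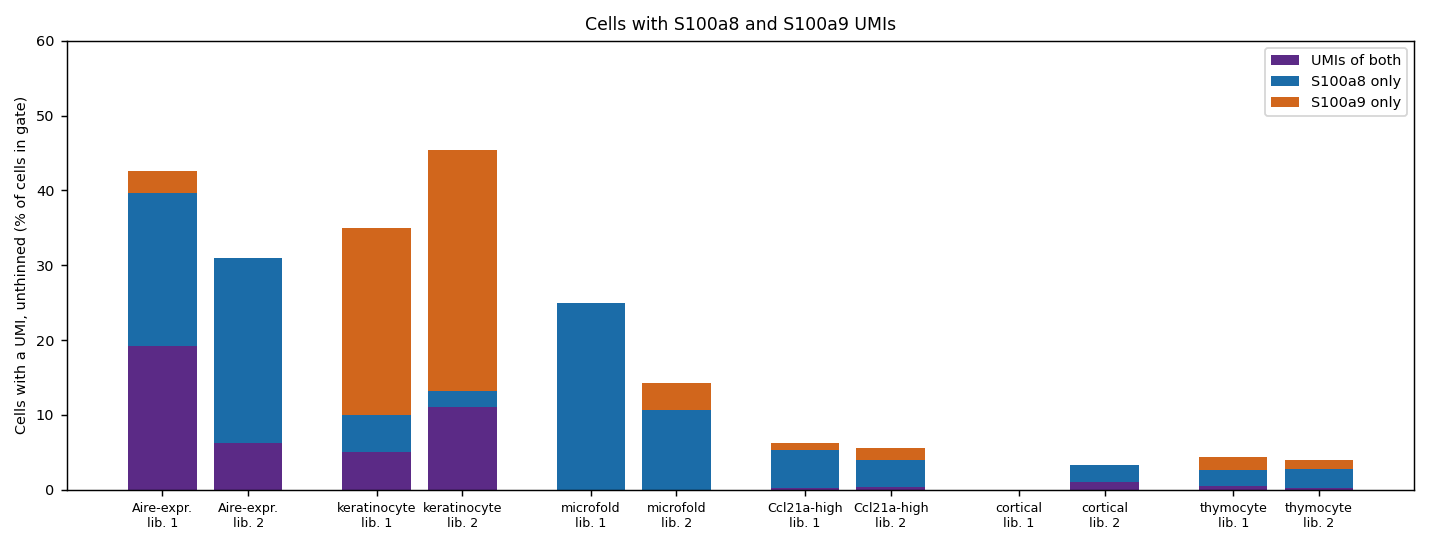
Stacked bars give the share of cells (vertical axis, percent of cells in the gate, unthinned) with UMIs of both S100a8 and S100a9 (purple), S100a8 alone (blue) or S100a9 alone (orange) in 6 gates of each library (horizontal axis). S100a8 alone and both genes make up most of the Aire-expressing bars, S100a9 alone most of the keratinocyte bars, and the cortical bar of library 1 is at 0.

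Markers of myeloid cells were higher in the Aire-expressing gate than in Ccl21a-high cells. Within the Aire-expressing gate, S100a8 was higher in both libraries in cells with UMIs of neutrophil or macrophage markers. S100a9 was higher with neutrophil markers in library 1 only, as was S100a8 with dendritic cell markers in that gate. The summed level of 10 neutrophil markers (Ngp, Camp, Retnlg, Mmp8, Csf3r, Ly6g, Cxcr2, Elane, Mpo and Cebpe) was 240 and 127 CPM there. It was 4.08 and 8.67 CPM in Ccl21a-high cells, 3.21 and 75.6 CPM in cortical cells, 7.01 and 1.82 CPM in keratinocyte cells and 15.2 and 18.5 CPM in microfold cells. In Aire-expressing cells Elane was at 0 in library 1, and Retnlg, Csf3r, Ly6g, Cxcr2, Elane and Cebpe were at 0 in library 2. The 8 macrophage markers (C1qa, C1qb, C1qc, Csf1r, Adgre1, Fcer1g, Tyrobp and Mrc1) summed to 165 and 124 CPM there, with none at 0, and to 8.17 and 11.8 CPM in Ccl21a-high cells. Restricted to the 160 and 96 Aire-expressing cells with no neutrophil-marker UMI, S100a8 was still at 766 and 415 CPM, and it was at 2276 and 1079 CPM in the 49 and 17 cells with one. Among the 95 and 78 cells with no macrophage-marker UMI it was at 313 and 462 CPM, and among the 114 and 35 with one at 1731 and 700 CPM. S100a9 without neutrophil-marker UMIs was at 367 and 88.1 CPM, and with them at 1080 and 2.66 CPM. Cells that pass the neutrophil gate itself numbered 1 in each library. The 6 dendritic cell markers summed to 40.2 and 24.3 CPM in Aire-expressing cells, with Siglech at 0 in both libraries, and to 3.50 and 9.45 CPM in Ccl21a-high cells. Without dendritic-marker UMIs S100a8 was at 932 and 714 CPM and S100a9 at 414 and 60.4 CPM. With them S100a8 was at 1388 and 160 CPM and S100a9 at 710 and 91.5 CPM. The 5 erythroid markers gave 107 and 25.5 CPM against 4.67 and 95.3 CPM in Ccl21a-high cells, and the 11 thymocyte markers 206 and 425 CPM against 201 and 927 CPM. The part of these markers in the calprotectin levels was not tested beyond these values.

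S100a14, an epithelial S100 protein of skin and gut lining, had its highest level of the 13 gates in Aire-expressing cells. It was at 1061 and 997 CPM there (1029 ± 45.4, SD), at 641 and 382 CPM in keratinocyte cells and at 89.2 and 211 CPM in cortical cells. Aire-expressing cells stood above keratinocyte cells in both libraries, and keratinocyte cells above cortical cells. Microfold, Ccl21a-high and tuft cells ranged from 64.7 to 137 CPM and overlapped one another. No fibroblast gate in the fit passed 24.3 CPM, below the 55.9 and 55.6 CPM of failed barcodes. In contrast to S100a8, UMIs were spread over most cells: the median Aire-expressing cell had 18 and 6 UMIs, and the top 10% of cells held 30.6% and 48.4%. The thinned share was 50.7% and 50.4% (97.6% and 85.8% unthinned), against 3.76% and 2.24% in thymocytes (7.53% and 4.54% unthinned). Among the small gates, S100a14 was at 282 and 658 CPM in enterocyte and hepatocyte cells and at 268 and 299 CPM in secretory cells.

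S100g, the intestinal calcium carrier, was at 373 and 218 CPM in Aire-expressing cells (296 ± 110, SD). Its nominally highest fitted gate was keratinocyte, at 17.5 and 900 CPM, but 482 of the 495 UMIs in library 2 came from 1 cell and the level without it was 25.2 CPM. With that cell left out, the Aire-expressing gate was the highest of the 13. In the small enterocyte and hepatocyte gate, whose peripheral counterpart is the known site of this protein, S100g reached 727 and 1048 CPM, above every fitted gate in both libraries. There the top 3 and 2 cells held 71.5% and 80.2% of the UMIs. Microfold cells had 134 and 98.9 CPM. Ccl21a-high cells had 12.3 and 63.0 CPM, cortical cells 0 and 64.8 CPM, and pericytes and smooth muscle 1.54 and 97.9 CPM. In these last 3 gates library 2 stood above library 1, and failed barcodes had 14.9 and 19.9 CPM. The thinned share was 23.9% and 20.4% in Aire-expressing cells (71.3% and 58.4% unthinned) and 1.08% and 1.09% in thymocytes (1.08% and 1.82% unthinned).

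**Figure D3:**
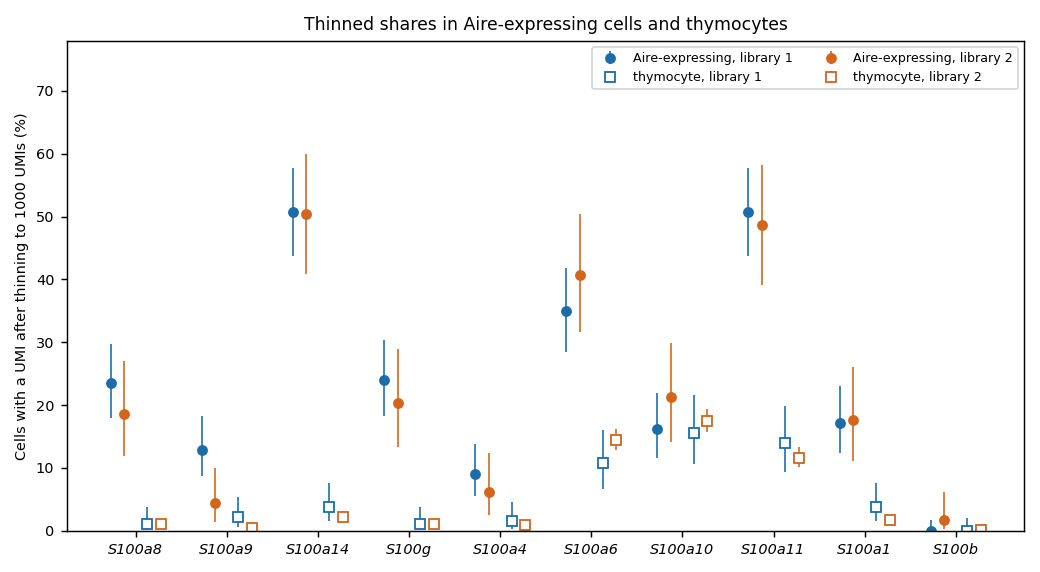
Points give the share of cells with a UMI (vertical axis, percent, after thinning each cell to 1000 UMIs) for 10 S100 genes (horizontal axis) in Aire-expressing cells (filled circles) and thymocytes (open squares) of library 1 (blue) and library 2 (orange), with 95% Clopper-Pearson intervals. S100a14 and S100a11 are near 50% in Aire-expressing cells of both libraries, and for S100a10 the shares of 16.3% and 21.2% overlap the 15.6% and 17.5% of thymocytes.

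S100a4, a partner of non-muscle myosin often used as a fibroblast mark, was low in fibroblasts here. The fibroblast gates in the fit held 14.1 to 43.6 CPM, with Pi16 cells at 14.1 and 25.4 CPM. Aire-expressing cells had 174 and 107 CPM (141 ± 47.3, SD), mesothelial cells 145 and 63.4 CPM, and keratinocyte cells 210 and 25.5 CPM. These 3 gates overlapped, and 29 of the 60 keratinocyte UMIs of library 1 came from 1 cell. Cortical cells had 2.41 and 18.9 CPM and Ccl21a-high cells 12.5 and 15 CPM. The thinned share in Aire-expressing cells was 9.09% and 6.19% (65.1% and 44.2% unthinned), against 1.61% and 0.969% in thymocytes (2.15% and 1.33% unthinned). Failed barcodes had 12.4 and 14.7 CPM. Myeloid markers moved with S100a4 in both libraries: Aire-expressing cells without macrophage-marker UMIs had 97.4 and 73.7 CPM, and those with them 235 and 150 CPM. Without and with neutrophil-marker UMIs the levels were 142 and 81.0 CPM against 285 and 197 CPM, and the part of these markers was not tested.

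S100a6 (calcyclin), known from proliferating and mesenchymal cells, marked the mesenchyme. It was at 4846 and 2457 CPM in mesothelial cells (3651 ± 1689, SD), which cover the capsule. Inmt and Penk fibroblasts had 2878 and 2921 CPM (2900 ± 30.3, SD), Pi16 fibroblasts 3196 and 2369 CPM (2782 ± 585) and Cxcl14 and Col15a1 fibroblasts 2176 and 2046 CPM (2111 ± 91.7). The mesothelial, Inmt and Penk and Pi16 gates did not separate, and all fibroblast gates stood above pericytes and smooth muscle, at 1300 and 1210 CPM. In the fitted epithelial gates, keratinocyte cells had 872 and 842 CPM, Aire-expressing cells 730 and 712 CPM and Ccl21a-high cells 511 and 541 CPM. Outside the fit, secretory cells had 1336 ± 74.1 CPM (SD), epithelial cells in no gate 1122 ± 92.3 and ciliated cells 1101 ± 37.0. Enterocyte and hepatocyte cells had 763 ± 93.2 CPM, neuroendocrine cells 162 ± 184 and cells of no lineage 1040 ± 288. Tuft and cortical cells were lower in library 1, at 97.6 and 78.7 CPM, than in library 2, at 399 and 348 CPM. Failed barcodes also differed, at 270 and 568 CPM, and that gap was not tested as a source of the library difference. Thinned shares in fibroblasts were 78.9% to 89.4%, and in thymocytes 10.8% and 14.5% (16.1% and 23.6% unthinned).

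S100a10 (p11), the partner of annexin A2, was high in cortical and microfold epithelium and lower in the other epithelial gates. Cortical cells had 1143 and 953 CPM (1048 ± 134, SD) and microfold cells 747 and 778 CPM, whereas Aire-expressing cells had 210 and 214 CPM. Tuft and keratinocyte cells were lower again in library 1, at 68.0 and 49.0 CPM, and had 182 and 178 CPM in library 2. Ccl21a-high cells stood between, at 398 and 403 CPM. Mesothelial cells gave 1807 and 852 CPM and overlapped the cortical gate. Within fibroblasts, Pi16 cells had 765 and 645 CPM (705 ± 84.5, SD), Inmt and Penk cells 364 and 381 CPM, and Cxcl14 and Col15a1 cells 213 and 206 CPM, and these 3 gates did not overlap. The thinned share in cortical cells was 62.9% and 50% (92.9% and 81.5% unthinned). In thymocytes it was 15.6% and 17.5%, at levels of 482 and 158 CPM, so that gate does not lack S100a10 and its share is no background here. Aire-expressing cells had thinned shares of 16.3% and 21.2%, and failed barcodes 73.0 and 178 CPM.

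S100a11 (calgizzarin), which binds annexin A1 and is known from keratinising epithelium, was broadly present and highest in microfold cells, at 2295 and 2478 CPM (2386 ± 129, SD). Cortical cells followed at 1684 and 1607 CPM (1645 ± 54.3, SD). Both gates stood apart from the gate next below in order. Keratinocyte cells had 1345 and 1207 CPM, mesothelial cells 1332 and 1140 CPM and tuft cells 809 and 1111 CPM. Ccl21a-high cells, at 881 and 919 CPM, stood a little above Aire-expressing cells, at 757 and 802 CPM, without overlap. Pi16 fibroblasts had 868 and 593 CPM, above the other fibroblast gates, which had 302 to 376 CPM. Secretory cells, too few in library 1 for the fit (12 and 68 cells), had 1559 and 2095 CPM. The thinned share was 87.5% and 82.1% in microfold cells and 14% and 11.6% in thymocytes, whose levels were 413 and 73.6 CPM.

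S100a1, known from heart and skeletal muscle, shared its top level between cortical cells, at 688 and 705 CPM (696 ± 12.2, SD), and tuft cells, at 664 and 719 CPM (692 ± 38.8, SD). These gates overlapped, and both stood above all others in the fit. The highest tuft cell held 87 of 606 UMIs in library 1 and 114 of 418 in library 2, and the tuft levels without it were 585 and 542 CPM. Aire-expressing cells had 207 and 288 CPM, Ccl21a-high cells 124 and 172 CPM and the fibroblast gates 38.6 to 104 CPM. Thymocytes gave 236 CPM in library 1, where 76 of 208 UMIs came from 1 cell, and 9.51 CPM in library 2. The thinned share in cortical cells was 52.9% and 48.9%, against 3.76% and 1.63% in thymocytes.

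S100b was nearly absent. All cells kept held 94 and 218 UMIs of it, in 40 and 59 cells. In the Aire-expressing gate it was at 2.78 CPM (13 UMIs in 4 cells) and 37.0 CPM (61 UMIs in 4 cells), but 49 of the latter came from 1 cell, and without it the level was 7.42 CPM. Over both libraries 74 UMIs in Aire-expressing cells stood against 2 in Ccl21a-high cells, a ratio of the pooled levels of 27.5 with a counting interval of 7.34 to 231, most of which rests on that 1 cell. Cortical and microfold cells had no UMI. S100b did not pass the filter on low counts, so it has no fold difference below.

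The fit across all genes held 14075 genes in 26 sums (13 gates in each library), with a library term and 12 residual degrees of freedom. In it, 9 of the 10 genes passed the filter. Between Aire-expressing and Ccl21a-high cells, edgeR called 22.6% of all genes, 12.6% as higher in Aire-expressing cells and 9.98% as lower. Of the 9 S100 genes, 7 stood higher and 2 lower, all 9 on the same side in both libraries, with a median log2 fold of 3.45 against 0.03 over all genes. The S100 genes were chosen by their counts in these gates. Their medians and sides, here and in the comparisons below, are therefore description and no support. The share of all genes on the same side in both libraries was not counted. The folds split into large and small ones. S100a9 had a log2 fold of 6.83 (SE 1.06), S100a8 6.50 (1.46), S100g 4.31 (1.16), S100a14 3.51 (0.797) and S100a4 3.45 (0.814). S100a1 (0.83), S100a6 (0.53), S100a11 (-0.13) and S100a10 (-0.85, SE 0.512) lay near 0. S100a9 differed most between libraries, at 7.56 and 3.31, and S100g was at 4.86 and 1.86.

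Against cortical cells, 22.6% of genes were called, 13.7% as higher in Aire-expressing cells and 8.85% as lower. Here 6 of the 9 genes stood higher and 3 lower, with a median of 3.18 against 0.19 over all genes. Without S100a9, which had 1 UMI in cortical cells, the median over 8 genes was 2.60. Log2 folds were 5.79 (SE 1.50) for S100a8, 5.33 (1.33) for S100g, 4.54 (1.04) for S100a4, 3.18 (0.799) for S100a14 and 2.02 (0.648) for S100a6. The cortical gate was the higher for S100a10 (-2.11, SE 0.529), S100a1 (-1.27, SE 0.704) and S100a11 (-0.87, SE 0.389). The libraries differed in size of fold. S100a8 and S100g had no cortical UMI in library 1, and library 2 alone gave 3.14 and 1.99. S100a4 was at 5.74 and 2.68 and S100a6 at 3.35 and 1.29. For S100a9 the ratio of levels was 660 with a counting interval of 118 to 26078.

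The mean of the tuft, keratinocyte and microfold gates was then set against Aire-expressing cells, where edgeR called 20.9% of genes, 5.98% as higher in mimetic cells and 15% as lower (842 and 2105 genes). With DESeq2 size factors the split was 1176 higher and 1598 lower, and the median fold of all genes moved from -0.24 to -0.09. Of the 9 S100 genes 7 stood lower in mimetic cells and 2 higher, with a median of -1.88, and 7 were on the same side in both libraries. Without S100a9, which had 1 UMI in microfold cells, the median was -1.33. S100a8 (-3.25, SE 0.893), S100g (-2.93, SE 0.861), S100a14 (-2.71, SE 0.554) and S100a4 (-1.88, SE 0.599) were lower on average over the mimetic gates, and S100a11 (0.77, SE 0.330) was higher. For S100g the libraries gave -4.43 and -0.71, for S100a8 -4.90 and -2.71 and for S100a4 -1.39 and -3.26. S100a10 had -0.03, and 0.04 with DESeq2 size factors, so it takes no side.

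Between the mean of the 6 epithelial gates and the mean of the 3 fibroblast gates, 48.2% of genes were called, 18.4% as higher in epithelium and 29.7% as lower (2596 and 4182). DESeq2 size factors gave 3697 and 3640, and the median of all genes moved from -0.11 to 0.04. Of the 9 S100 genes, 6 stood higher in epithelium, with a median of 1.71, or 1.82 without S100a9. S100a14 had a log2 fold of 4.65 (SE 0.508), S100a8 3.38 (0.775), S100g 3.25 (0.718), S100a1 2.27 (0.397) and S100a11 1.37 (0.206). S100a6 was lower in epithelium, at -2.70 (SE 0.296). S100a4, at -0.08, went to 0.07 with DESeq2 size factors and to 0.44 and -0.90 in the single libraries, so it takes no side.

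Among fibroblasts, Pi16 cells, known from adventitia and capsule, were compared with the mean of the other fibroblast gates, and 8.08% of genes were called, 4.5% as higher in Pi16 cells and 3.58% as lower. Of the 9 S100 genes 7 stood higher and 2 lower, with a median of 1.04 against 0.11 over all genes, and 7 were on the same side in both libraries. The annexin partners S100a10 (1.50, SE 0.423) and S100a11 (1.30, SE 0.324) were higher in Pi16 cells in both libraries, at 1.65 and 1.33 and at 1.68 and 0.91. S100a6, high in every fibroblast gate, had 0.34 (SE 0.519). S100g had 1.96 (SE 1.06), with 0.31 and 2.38 in the single libraries, and its level in Pi16 cells of library 1 was 1.49 CPM.

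**Figure D4:**
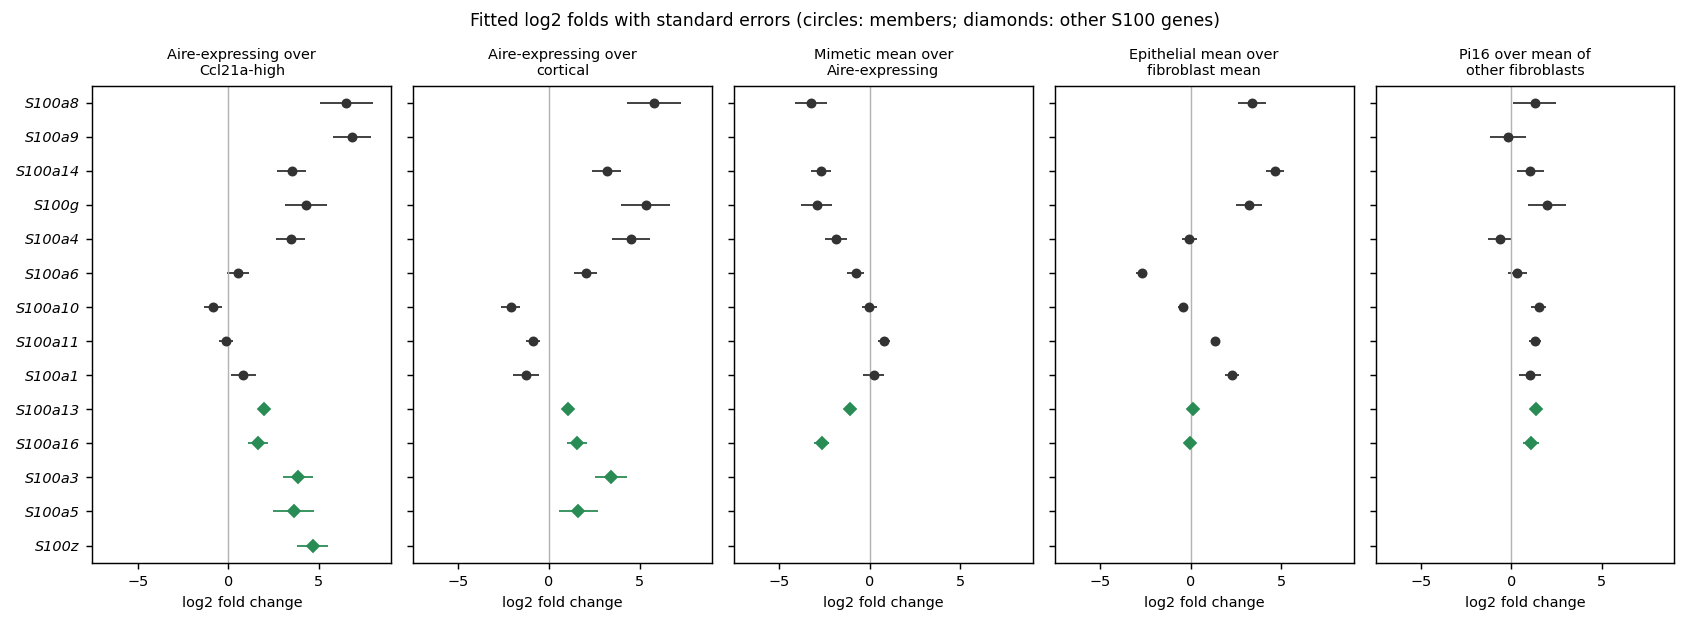
Points give fitted log2 fold differences with standard errors (horizontal axis) for 9 of the 10 S100 genes (dark circles) and 5 other S100 genes (green diamonds), listed on the vertical axis, in 5 comparisons (panels). A gene with 3 or fewer UMIs over both libraries in a gate of the comparison is not drawn there; S100a8, S100a9, S100g, S100a14 and S100a4 lie far to the right in the first panel, and S100a6 lies at -2.70 in the fourth.

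Other S100 genes were tested, since they are not among the 10 chosen by their counts. Their list was still fixed with earlier results of these data known, so it is not independent of them. Of the 6 listed, 5 passed the filter on low counts. All 5 were called as higher in Aire-expressing than in Ccl21a-high cells, where 12.6% of all genes were. For S100z and S100a5 the filter largely set that direction, so their calls are no support. S100z had at most 2.93 CPM in the other fitted gates, and passed through the Aire-expressing gate alone. S100a5 would not have passed without that gate, since its highest level elsewhere, 29.7 CPM in cortical cells of library 2, came from 1 cell. S100a13, which helps export growth factors lacking a signal peptide, was at 473 and 639 CPM against 120 and 177 CPM (log2 fold 1.99, SE 0.338, edgeR adjusted p = 0.00069). S100a16 was at 649 and 862 against 232 and 280 CPM (1.64, edgeR adjusted p = 0.036). S100a3, known from hair cuticle, was at 75.0 and 96.6 against 3.79 and 10.2 CPM (3.85, edgeR adjusted p = 0.00334). S100z was at 30.4 and 40.1 against 0.875 and 2.36 CPM (4.66, edgeR adjusted p = 0.00248), and S100a5 had a log2 fold of 3.61 (edgeR adjusted p = 0.0436), a call kept in 4 of 7 alternatives. The groups did not overlap for the 4 genes whose levels are given. The share of all genes without overlap was not counted, so this adds nothing to the calls. S100a3 overlaps S100a2 in the annotation, so counts of this pair are uncertain, and S100a2, in neither list, was at 144 ± 21.2 CPM (SD) in Aire-expressing cells.

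Against cortical cells 4 of the 5 were called as higher in Aire-expressing cells, beside 13.7% of all genes. S100a13 had a log2 fold of 1.02 (edgeR adjusted p = 0.0337, kept in 5 of 7 alternatives), S100a3 3.41 (0.0123) and S100a16 1.55 (0.0467), the last kept in 4 of 7 alternatives. S100z had 208 UMIs against none in cortical cells, at least 17.7-fold higher with 3 UMIs over the group as the floor. The filter largely set this direction as well. All 5 were called as lower in the mean of the mimetic gates than in Aire-expressing cells, which share that group with the comparisons above. There 15% of all genes were called as lower. S100a16 had -2.66 (edgeR adjusted p = 0.000327) and S100a13 -1.09 (0.00599), which was kept in 5 of 8 alternatives. S100a5 and S100z had no UMI in the mimetic gates and were at least 14.3-fold and 30.9-fold lower there. For these genes that direction, too, was largely set by the filter. S100a13 alone was called between fibroblasts, as higher in Pi16 cells (1.37, edgeR adjusted p = 0.00293), a call kept in 8 of 8 alternatives. Between epithelium and fibroblasts edgeR called 0 of the 5. Of these, 0 had an unadjusted p under 0.05 there, and 1 was called by DESeq2.

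Of 17 genes for partners, receptors and calcium handlers, 15 passed the filter. Between Aire-expressing and Ccl21a-high cells 2 were called as higher and 6 as lower, beside 12.6% and 9.98% of all genes. Vdr, the vitamin D receptor that controls S100g in gut, was at 55.2 and 52.8 CPM against 15.8 and 15.8 CPM (log2 fold 1.83, edgeR adjusted p = 0.00291), and Anxa11 had 1.26 (0.00715). Anxa2, which binds S100A10, was at 69.5 and 141 CPM against 411 and 473 CPM (-2.03, edgeR adjusted p = 0.000955). Anxa1, which binds S100A11, had -2.25 (0.0061), the calprotectin receptor Tlr4 -2.37 (0.0134), the S100A10 scaffold Ahnak -1.24 (0.03), Anxa6 -0.99 (0.0117) and Myh9, the heavy chain of non-muscle myosin, -0.80 (0.0138). Tlr4 in Aire-expressing cells rested on 11 and 2 UMIs. The calls of Ahnak and Myh9 were each kept in 6 of 8 alternatives and those of Anxa11 and Anxa6 in 7 of 8. Against cortical cells Vdr was higher (2.33, edgeR adjusted p = 0.00201), and Anxa2 (-1.92, 0.00147), Anxa6 (-1.31, 0.00265) and Ahnak (-1.30, 0.0241) were lower, 1 and 3 of the 15 beside 13.7% and 8.85% of all genes. In mimetic cells Anxa1 (2.64, edgeR adjusted p = 0.00132) and Anxa2 (1.37, 0.00482) were higher than in Aire-expressing cells, as were 5.98% of all genes.

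Between epithelium and fibroblasts 2 of the 15 partners were higher in epithelium and 6 lower, a share near the 48.2% of all genes called there. Vdr ranged from 5.62 to 130 CPM in the epithelial gates and from 0.619 to 9.83 CPM in the fibroblast gates (edgeR adjusted p = 1.73e-08). Sugt1, a chaperone adaptor, had a log2 fold of 0.42 (edgeR adjusted p = 0.00445, kept in 6 of 8 alternatives). The plasminogen activator Plat, a ligand of S100A10, was at 0 to 49.0 CPM in epithelial and 158 to 262 CPM in fibroblast gates (edgeR adjusted p = 8.54e-10). Tlr4 was at 1.10 to 11 and 12.7 to 26.0 CPM (edgeR adjusted p = 7.92e-06). Ahnak had a log2 fold of -2.27 (edgeR adjusted p = 1.39e-08), Anxa6 -0.96 (1.08e-05) and Bsg, a receptor for S100A9, -0.48 (0.00194, kept in 7 of 8 alternatives). Ager was called as lower in epithelium (edgeR adjusted p = 0.00581), a call kept in 4 of 6 alternatives, on 4 UMIs in the cortical and mimetic gates together. No fold is given for Vdr, Plat, Tlr4 and Ager, each of which had 3 or fewer UMIs in a gate. In Pi16 fibroblasts Anxa1 stood with S100a11, at 640 and 404 CPM against 102 to 136 CPM in the other fibroblast gates (2.26, edgeR adjusted p = 0.00161). Vdr (edgeR adjusted p = 0.000874) and Ahnak (log2 fold 1.15, 0.0306, kept in 4 of 8 alternatives) were also higher in Pi16 cells, and Myh9 (-0.73, 0.0215, kept in 6 of 8) was lower. Of the 15 partners 3 were thus called as higher and 1 as lower, beside 4.5% and 3.58% of all genes. Vdr was at 7.14 and 9.83 CPM in Pi16 cells and at most 2.15 CPM in the others.

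Among themselves, the S100 genes fell into patterns over the 26 gate-by-library values, which share libraries and depth. Pearson's r of log2(CPM + 10) was 0.81 for S100a8 with S100g, 0.76 for S100a14 with S100g, 0.77 for S100a11 with S100a1 and 0.48 for S100a8 with S100a9. S100a6 with S100a1 gave -0.33. Likeness was taken over 7063 genes with a mean of at least 20 CPM, with the marker genes of the gates left out. Among these, the closest other genes to S100a14 were Cadps (0.95), Lad1 (0.92) and Skint10 (0.91). S100a9 was closest to Klk7 (0.91), a protease of skin shedding, Fam25c (0.88) and Psors1c2 (0.87). S100a8 was closest to Ncf4 (0.86), a subunit of the phagocyte oxidase, Muc1 (0.86) and Bax (0.85), and S100g to Muc1 (0.84), Lad1 (0.83) and Ctss (0.82). The closest to S100a6 were Fam102b (0.89), Nucb2 (0.89) and Ecm1 (0.88), and to S100a11 Dstn (0.88), Rala (0.84) and Ccng1 (0.83). S100a10 was closest to Fth1 (0.80), Csrp2 (0.78) and Rap2b (0.78), and S100a1 to Hist1h2bc (0.88), Gm5617 (0.83) and Aldoa (0.83). For S100a4 the closest were Pkdcc (0.72), Zbtb7c (0.71) and Abcc1 (0.70), and for S100b Pyy (0.69), Icosl (0.64) and Tmem158 (0.63), lower values than for the rest.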

How the data were processed

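For each of the 2 libraries of CD45-depleted thymic stroma the authors deposited a matrix of unnormalised UMI counts. Cell Ranger 7, Seurat 4 and mm10 appear in the submitters' processing notes, and Cell Ranger 6.0.0 stands in the matrices, per the file headers. Any earlier barcode filter is not given in the sources.

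The cell filter kept barcodes with 500 or more genes, 1000 or more UMIs and no more than 10% of UMIs from mitochondrial genes. Each cell was placed by scaled marker scores in a lineage (score at least 0.1, margin 0.05), then in an epithelial or fibroblast gate. Mimetic gates needed a score of at least 0.2 and 3 markers, the cortical gate a score of 0.4, Aire-expressing cells 2 Aire UMIs, Ccl21a-high cells 20 Ccl21a UMIs per 10000, and fibroblast gates a score of 0.1. No doublet caller was run: cells that passed more than 1 gate (128 and 121) and cells within a margin were left out. UMIs were summed per library and gate and fitted with edgeR 4.0.16 in R 4.3.3 (TMM, filterByExpr, quasi-likelihood test, the library as a block because every gate occurs in both, Benjamini-Hochberg over all genes, called at 0.05). Standard errors are the fold divided by the square root of the F statistic. Where a gate had 3 or fewer UMIs of a gene, a ratio, a bound or levels are given in place of its fold. Shares of cells were taken after thinning to 1000 UMIs (Clopper-Pearson intervals), and levels have Poisson intervals. Both cover counting error only. DESeq2 1.42.0, scanpy 1.11.5 and scipy 1.17.1 served the alternatives and intervals. The edgeR fit was tested on simulated data. Gene positions come from GENCODE M21 by gene identifier, and 8 of the 10 genes matched the RefSeq promoter table.

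The S100 genes, the lists and the tests were chosen with earlier results of these data known. All 10 S100 genes are named. Of the other S100 genes and partners, those called in a comparison are named, up to 10 by absolute fold. Of genes most like an S100 gene, the top 3 by Pearson's r are named. The values of 1 marker list, bearing on S100b, are not reported here. Alternatives were other tools, filters, gates, clusters, depth and single libraries.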

Additional observations from a re-analysis of the deposited data

Results flagged for a closer look

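S100b, near 0 in most gates, was at 7.68 CPM in library 1 among the 449 cells that no lineage claimed, cells that enter no comparison. This stood above the limit that a count of 0 allows, with 22 of the 24 UMIs in 1 cell. In library 2 the same class had 26.7 CPM, with 35 of 99 UMIs in 1 cell.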

How the results depend on the processing

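Among the 41 calls of other S100 genes and partners, no direction reversed under the alternatives run. Folds of the S100 genes, which have no test, changed sign for S100a4 (3 of 10 alternatives), S100a9 and S100a10 (1 each) between epithelium and fibroblasts, for S100a10 (5) and S100a1 (1) in mimetic cells, and for S100a9 (2), S100a8 and S100a14 (1 each) in Pi16 cells. Thinning every cell to 1000 UMIs left 5963 genes in the fit and called 644 (Aire-expressing against Ccl21a-high), 456 (against cortical), 487 (mimetic), 2151 (epithelium against fibroblasts) and 376 (Pi16) genes, against 3184, 3174, 2947, 6778 and 1137 at full depth. Of the other S100 genes and partners it called 4, 2, 3, 3 and 2, against 13, 8, 7, 8 and 5. Without the filter on low counts the Pi16 comparison called 1770 genes. With no replicate block, that is without the library term, the counts were 2539, 2657, 2473, 6535 and 888. Single libraries have no residual degrees of freedom and so no test. With 1 library left out, the gate with the highest level was unchanged for 6 of the 10 S100 genes, a different 6 for each library. Only S100a14 and S100a11 kept theirs in both cases. Without library 1 the highest gate became keratinocyte for S100a9, tuft for S100a1, Inmt and Penk fibroblasts for S100a6 and cortical for S100a10. Without library 2 it became microfold for S100a8, Aire-expressing for S100g, keratinocyte for S100a4 and Inmt and Penk fibroblasts for S100b. Leaving out the cell with most UMIs of a gene, an alternative added after seeing the data, moved S100g from keratinocyte to Aire-expressing. Over all alternatives, 343 folds of the S100 genes moved by less than the SD of their 2 single-library folds and 98 by more. Of the folds of called genes, 270 kept their call and 34 did not. The cause was not tested. Stricter subtype gates left too few cortical cells, so that comparison was not run there, and left 2 mimetic gates, as did Leiden clusters, while stricter cells left 1. Depth limits S100b and S100a9 outside 2 gates, where counts were a few UMIs.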
